A study of Mus musculus with 7 samples.

Results

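The white adipocyte stores energy as triacylglycerol, and 42 genes of lipid storage and lipogenesis were followed in the mammary gland of mice with added PR-A and of their wild-type littermates. The 42 genes are among 37074 gene names on the array, taken by name from its gene column. They were measured by 89 of the 56605 probes that were not controls, and 87 of these probes passed the filter on dim signals. Every one of the 42 genes kept at least 1 probe, and the brightest kept probe in the gland channel stands for the gene. This probe was well above background in the gland RNA on all 7 arrays for all 42 genes, and in the reference RNA on all 7 arrays for 39.

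The mice were nulliparous FVB females of 20 to 25 weeks, killed at diestrus. The 4 PRA transgenics were bigenic animals that carry CMV-GAL-4, in which a cytomegalovirus promoter drives the transactivator GAL-4, together with UAS-PR-A, which GAL-4 switches on, so that the A form of the progesterone receptor is in excess. The cytomegalovirus promoter is not restricted to one cell type. The 3 wild-type animals were littermates without the added PR-A. A single abdominal gland per animal was used after its lymph nodes had been cut out, and the fatty layer of the Trizol lysate was removed before RNA was extracted. Gland RNA was labeled with Cy5 and hybridized with Cy3-labeled Universal Mouse Reference RNA, the same pool on every array, so that each value is a log2 ratio of gland to reference. Animals are named WT1 to WT3 and PRA1 to PRA4 by their replicate numbers in the labels.

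In an adipocyte, fatty acids arrive from the blood after lipoprotein lipase has freed them, or are made in the cell from citrate and acetate, a route called de novo lipogenesis that responds to feeding and insulin. They are joined to glycerol phosphate as triacylglycerol and kept in a droplet coated by perilipins. Lipases release them again. The stroma of the mammary gland is a fat pad rich in such adipocytes, and the milk-producing epithelium uses many of the same lipogenic enzymes. A gland holds many cell types, and fewer cells of a type and less RNA per cell cannot be told apart.

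All 7 arrays lay on 1 slide, wild-type in row 1 and PRA transgenic in row 2, and the row of the slide therefore cannot be told apart from genotype. Between 56.7% and 66.2% of probes were well above background in Cy5 on an array, and between 47.2% and 54.0% in Cy3, with the lower values in the PRA transgenic row in both channels. No spot was saturated. The 6 white adipocyte markers (such as Adipoq, the gene of adiponectin) were well above background in Cy5 on all 7 arrays, and their mean log2 ratio ran from 4.48 to 4.82 in wild-type and from 4.54 to 5.13 in PRA transgenics. Markers of the epithelium were present too, with 12 of 12 luminal and 6 of 6 basal markers kept. The 8 skeletal muscle markers kept differed most between glands, with a mean log2 ratio of 1.82, -0.77 and 3.07 in WT1 to WT3 and of -0.38, -0.34, -0.45 and 2.65 in PRA1 to PRA4. Lymphoid markers were not even either. WT1 had a mean of 2.05 for T cell and 0.76 for B cell markers, beside -0.25 to 0.41 and -1.62 to -0.78 in the other glands.

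The first comparison asked whether lipid storage and lipogenesis genes differed between PRA transgenic and wild-type glands. Of the 42 genes, 37 had a higher mean log2 ratio in PRA transgenics and 5 a lower one, and the median difference was 0.22 on the log2 scale against 0.014 over all 22503 genes, of which 52.7% were higher. Of these 37, Plin1, Cidec, Lpl, Fabp4, Pck1, Abhd5 and Car3 were lower in PRA transgenics in Cy5 alone, without the reference. There the median difference of the 42 genes was 0.16, against -0.0073 over all genes. In the ratio the median of the members was 0.11 without PRA1 and 0.33 without PRA4, the lowest and highest with an array left out. Few of these differences exceeded the spread between animals. Slc27a1, Lpin1 and Lipe were higher at an unadjusted P under 0.05, which is 7.14% of the members beside 7.95% of all genes (3.6% of all genes higher), and no member was lower at that level, as 4.35% of all genes were. After Benjamini-Hochberg adjustment over all 34288 probes no member passed, with a lowest adjusted p of 0.462 from limma, and 4 probes (0.0117%) passed in all. No member combined P under 0.05 with a 1.5-fold change, as 4.06% of all genes did. In Plin1, Lpin1 and Lipe every PRA transgenic animal was above every wild-type animal, which is 7.14% of the members beside 4.59% of all genes, and in none was every PRA transgenic animal below, as in 4.52% of all genes.

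**Figure D1:**
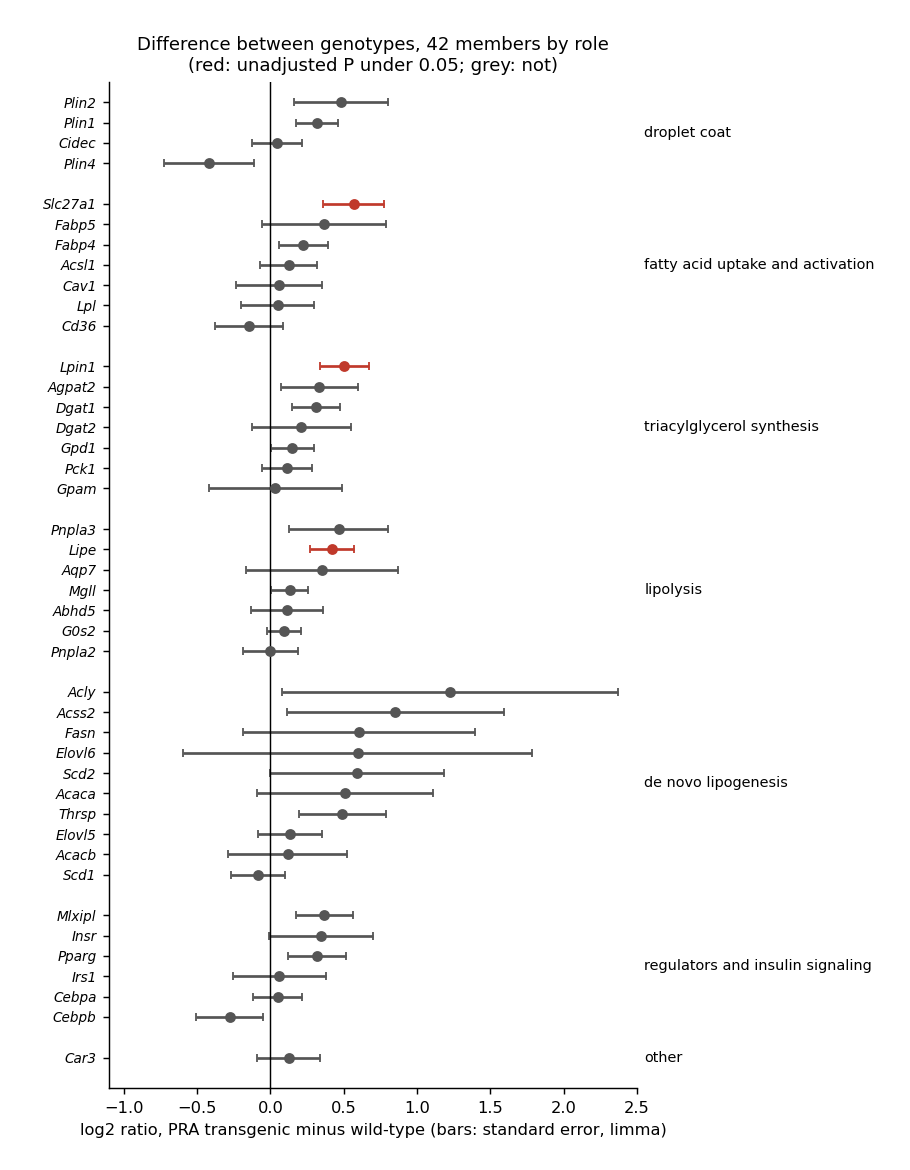
Mean log2 ratio of PRA transgenics minus wild-type for the 42 genes, grouped by role, with the standard error from limma as bars. 37 of 42 points lie above 0, the 3 genes at P under 0.05 are red, and the longest bars belong to de novo lipogenesis.

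De novo lipogenesis was the role in which the glands differed most from each other, and they differed within genotypes. Its 10 genes had a mean log2 ratio of 3.69, 2.78 and 3.37 in WT1 to WT3, and of 4.25, 4.14, 4.60 and 2.15 in PRA1 to PRA4. PRA1, PRA2 and PRA3 were therefore above all wild-type glands, and PRA4 was below all of them. PRA4 had the lowest value for 8 of the 10 genes and was among the 2 lowest for 10 of 10, WT2 was among the 2 lowest for 7, and PRA3 was the highest for 8. The median gene of this role differed 5.1-fold between its highest and its lowest animal, beside 1.86-fold for the 32 other members and 1.54-fold for the 24664 probes with both channels well above background. The difference between genotypes was positive for 9 of the 10 genes, with a median of 0.55, and none of the 10 had a P under 0.05.

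The 4 genes with the widest range were Acly, Elovl6, Acss2 and Fasn. Their promoters, which are printed to show the sequences upstream of genes that varied together, are the 250 bases before the start on the gene's strand, from RefSeq on GRCm38.p6 (Acly chr11:100528001-100528250, minus; Elovl6 chr3:129532136-129532385, plus; Acss2 chr2:155517793-155518042, plus; Fasn chr11:120824548-120824797, minus). Capitals mark matches on either strand to CCAAT, a general promoter box (ATTGG on the other strand), and to AGGTCA, a core site of nuclear receptors (TGACCT on the other strand).
Acly: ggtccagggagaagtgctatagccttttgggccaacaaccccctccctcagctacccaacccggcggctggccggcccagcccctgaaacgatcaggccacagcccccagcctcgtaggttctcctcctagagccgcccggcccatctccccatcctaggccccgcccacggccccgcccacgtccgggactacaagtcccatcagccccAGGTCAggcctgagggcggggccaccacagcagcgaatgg
Elovl6: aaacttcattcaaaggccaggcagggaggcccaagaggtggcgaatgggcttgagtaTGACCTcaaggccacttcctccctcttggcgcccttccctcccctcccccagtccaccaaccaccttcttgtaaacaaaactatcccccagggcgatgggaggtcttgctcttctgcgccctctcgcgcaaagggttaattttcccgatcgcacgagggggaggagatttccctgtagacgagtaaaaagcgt
Acss2: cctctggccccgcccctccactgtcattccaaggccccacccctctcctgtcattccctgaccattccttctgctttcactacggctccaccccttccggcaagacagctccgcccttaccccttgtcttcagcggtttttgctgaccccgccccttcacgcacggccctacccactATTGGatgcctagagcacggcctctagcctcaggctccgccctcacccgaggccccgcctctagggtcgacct
Fasn: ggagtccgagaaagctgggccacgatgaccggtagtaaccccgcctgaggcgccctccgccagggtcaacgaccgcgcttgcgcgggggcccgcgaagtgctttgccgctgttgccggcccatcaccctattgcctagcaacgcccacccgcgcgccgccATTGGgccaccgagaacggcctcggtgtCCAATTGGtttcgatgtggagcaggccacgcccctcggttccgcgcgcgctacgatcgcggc

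In the Fasn promoter 3 matches to CCAAT lie within the last 90 bases before the start, and 2 of them overlap in CCAATTGG. Acly has its match to CCAAT behind the start, at base 38, outside the stretch printed. Among the 8 lipogenesis genes with a promoter in the table, CCAAT was found within the whole 300-base window (250 bases before the start and 50 after) in 6, beside 41.1% of all genes in the table. AGGTCA was found in 3 of the 8, beside 18.1% of all genes. The E-box CACGTG was found in 1 of the 8 (Elovl5), beside 8.09% of all genes, and TCACNCCAC, an element bound by sterol regulatory element-binding proteins, and TTGCNNAA, a form of the C/EBP element, were found in none of the 8, beside 1.44% and 12.2%. These matches are letters in a window and were not tested for binding. Of the 42 genes, 32 had a promoter in the table.

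Acly makes cytosolic acetyl-CoA from citrate and so opens the route. Its probe (chr11:100337674-100337733 on mm9, minus strand) gave log2 ratios of 3.45, 1.60 and 3.29 in WT1 to WT3 and of 4.67, 4.85, 5.64 and 0.83 in PRA1 to PRA4. The genotypes overlapped only through PRA4, the lowest of the 7 animals, which lay 28.2-fold below PRA3. The wild-type mean was 2.78 ± 1.02 (SD, n = 3). The PRA transgenic mean was 4.00 ± 2.16 (SD, n = 4), and the difference was 1.22 with a standard error of 1.15 (adjusted p = 0.803 from limma). A second Acly probe had the same 3 animals highest, with 3.37, 3.64 and 3.92 in PRA1 to PRA3, and the same pair lowest, with 0.88 in WT2 and 0.90 in PRA4.

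Elovl6, which lengthens the palmitate that fatty acid synthase makes, had the same order of animals. Its probe (chr3:129337756-129337815 on mm9, plus strand) gave 4.26, 2.11 and 4.01 in wild-type and 4.64, 5.20, 5.58 and 0.80 in PRA transgenics. PRA1 to PRA3 were above and PRA4 was below every wild-type animal, with a 27.5-fold range. The difference between means was 0.60 with a standard error of 1.19 (adjusted p = 0.927 from limma).

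Acss2, which makes acetyl-CoA from acetate, gave 3.97, 3.22 and 4.04 in wild-type and 4.87, 5.19, 5.80 and 2.51 in PRA transgenics. The order was again PRA1 to PRA3, then wild-type, then PRA4, over a 9.79-fold range, and the difference was 0.85 with a standard error of 0.74. Of the 3 other Acss2 probes, a dim one differed in call and was higher at P under 0.05, with -0.75, -0.029 and -0.40 in wild-type and 2.04, 2.18, 2.18 and -0.46 in PRA transgenics (difference 1.88, adjusted p = 0.476 from limma). On that probe PRA4 lay inside the wild-type range.

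Fasn, the synthase that builds palmitate, gave 6.07, 4.81 and 5.93 in wild-type and 7.08, 6.56, 7.17 and 4.01 in PRA transgenics (chr11:120668460-120668519 on mm9, minus strand). PRA4 was lowest and WT2 next, and the range was 8.93-fold. The difference between means was 0.60 with a standard error of 0.79 (adjusted p = 0.87 from limma), and in Cy5 alone, without the reference, the difference was 0.16.

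Acaca and Acacb make malonyl-CoA, the building block of the chain, and Scd2 encodes a desaturase that acts on the finished fatty acid. Acaca gave 3.70, 2.47 and 3.38 in wild-type and 4.32, 3.94, 4.42 and 2.10 in PRA transgenics, with 1 of its 7 probes, the dimmest, at a difference of -0.35. Scd2 gave -0.22, -0.39 and -1.27 in wild-type and 0.62, 0.14, 0.73 and -1.64 in PRA transgenics. Both genes repeated the pattern in which PRA1 to PRA3 were above and PRA4 below the wild-type animals, with ranges of 5.00-fold and 5.19-fold. Acacb had a narrower range of 3.17-fold, from 2.34 in PRA4 to 4.01 in PRA3, with a difference of 0.12. Its other probes, which were dimmer, ranged 1.80-fold and 1.34-fold, and on them WT2 was the lowest animal, not PRA4. Thrsp, the lipogenesis-associated Spot 14 gene, ran from 4.34 in WT2 to 5.59 in PRA1, with a difference of 0.49 and a standard error of 0.30.

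Scd1 and Elovl5 stood apart from the other lipogenesis genes. Scd1, the main desaturase of adipocytes, gave 6.18, 6.27 and 6.14 in wild-type and 6.50, 6.06, 6.15 and 5.73 in PRA transgenics, and Elovl5, which lengthens polyunsaturated fatty acids, ran from 0.19 in WT3 to 1.01 in PRA3. Their ranges were 1.71-fold and 1.77-fold, and their differences -0.085 and 0.13. The other Elovl5 probe kept ranged 3.35-fold, with its reference signal well above background on 2 of 7 arrays. A second probe that carries the Scd1 symbol lies on the plus strand, opposite to the gene's own probe, and its reference signal was well above background on 2 of 7 arrays with a Cy3 range of 4.84 against a Cy5 range of 1.63. Its ratios were therefore not read as Scd1.

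**Figure D2:**
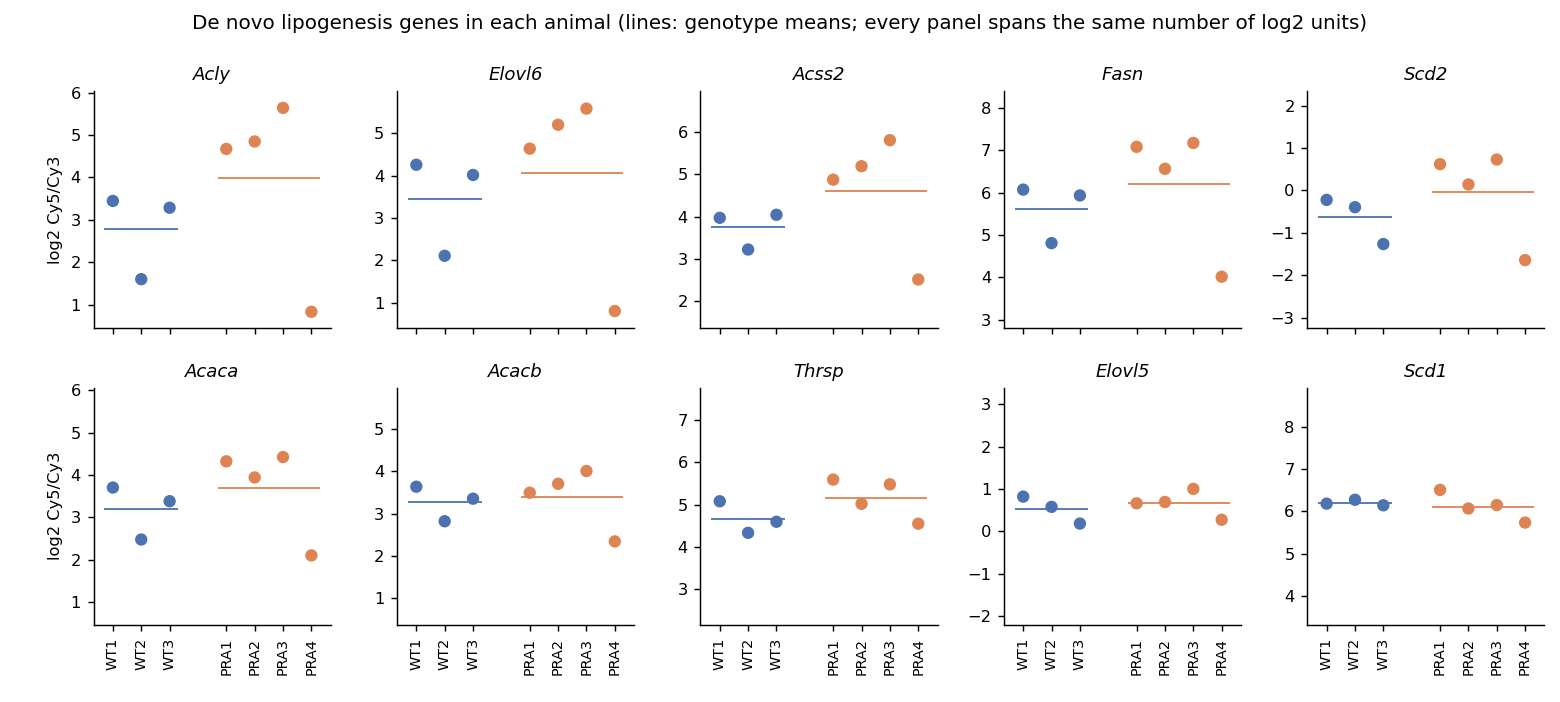
Log2 ratio of gland to reference for the 10 lipogenesis genes in each of the 7 animals, blue for wild-type and orange for PRA transgenics, with genotype means as lines. PRA4 is the lowest point in 8 of the 10 panels, and Acly and Elovl6 span 28.2-fold and 27.5-fold while Scd1 spans 1.71-fold.

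Both channels were examined, because a ratio also moves with the reference. In Cy5, scaled to the 75th percentile of each array, the lipogenesis mean was 6.28, 5.28 and 5.96 in wild-type and 6.72, 6.67, 7.13 and 4.63 in PRA transgenics, the same order as in the ratio. For Elovl6 the scaled Cy3 signal of the reference differed by 0.26 between the highest and lowest array and the Cy5 signal by 4.63, and for Acss2 these ranges were 0.35 and 3.58. For Acly they were 0.73 and 4.09. The ranges of the ratios of these 3 genes were thus mostly ranges of the gland signal.

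For other members the reference signal moved as well, although the reference RNA was the same. In Fasn the scaled Cy3 signal ran from 2.79 in PRA3 to 4.38 in PRA4, opposite to the gland, and the Cy5 range was 1.87, so that the ratio ranged more widely than the gland signal. In Thrsp the Cy3 signal ran with the gland, from 1.48 in PRA4 to 3.26 in PRA2, and the Cy5 range of 2.63 was wider than that of the ratio. Mlxipl, Pck1 and Plin1 had Cy3 ranges of 1.68, 1.77 and 1.40. What moved the Cy3 signal was not tested.

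**Figure D3:**
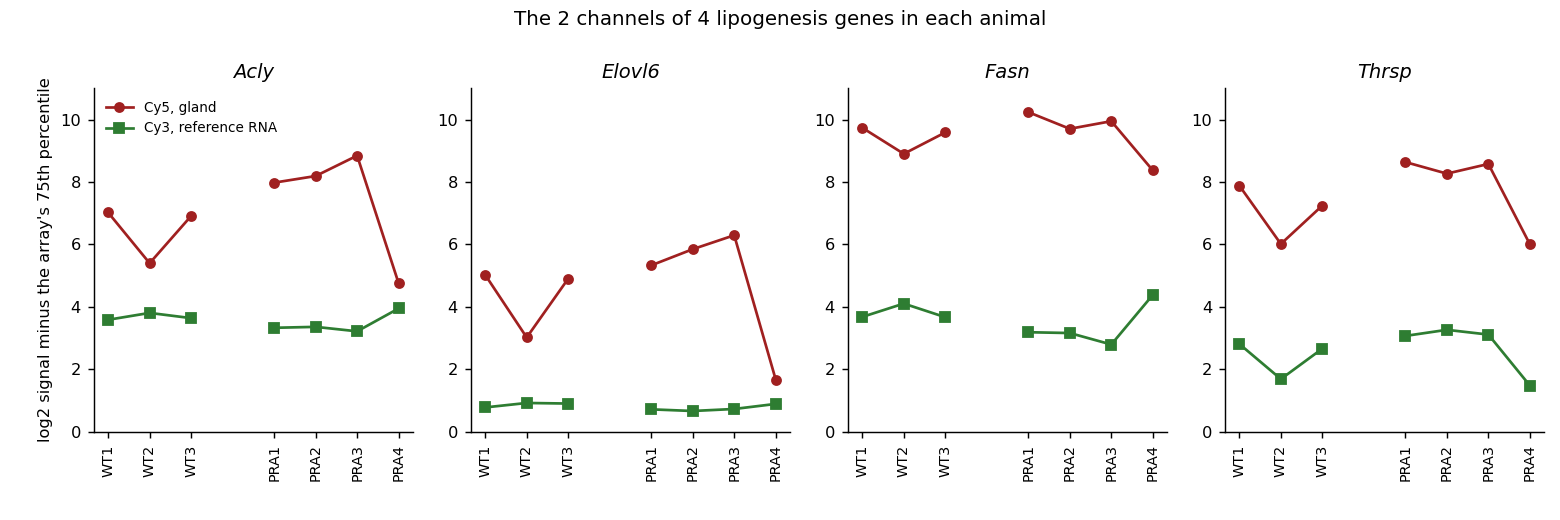
Log2 signal of Cy5 (gland, red circles) and Cy3 (reference RNA, green squares) of 4 lipogenesis genes on each array, each minus the 75th percentile of its array and channel. Lines join the arrays of a genotype for reading and imply no order. The Cy3 points stay within 0.26 for Elovl6 and within 0.73 for Acly, while those of Fasn and Thrsp range over 1.59 and 1.79.

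The genotype comparison of lipogenesis turned on PRA4. PRA4 was singled out because it was the lowest animal for 8 of the 10 lipogenesis genes. Leaving it out was therefore bound to raise the PRA transgenic mean of those genes. The counts without PRA4 describe how much rests on this animal and are not a test of lipogenesis. With PRA4 left out, 11 of the 42 members (26.2%) had a P under 0.05, all higher in PRA transgenics, beside 11.3% of all genes (5.89% higher and 5.41% lower). They were Acly, Acss2, Acaca, Fasn, Scd2, Elovl6 and Thrsp of de novo lipogenesis, and Agpat2, Lpin1, Mlxipl and Slc27a1, and 9 of them also passed 1.5-fold, beside 2.82% of all genes that did so and were higher and 3.44% that were lower. The Acly difference became 2.28 with a standard error of 0.55 and that of Fasn 1.34 with a standard error of 0.37, and the median of the 10 lipogenesis genes became 1.08. No member passed adjustment in that fit (lowest adjusted p of 0.265 from limma). With WT2 left out, the median of the 10 genes became 0.18. Nothing in the labels sets PRA4 apart from the other PRA transgenics.

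PRA4 also differed from the other PRA transgenics in marker lists. Its skeletal muscle mean was 2.65 against -0.45 to -0.34 in PRA1 to PRA3, but WT1 and WT3, whose lipogenesis means were between the extremes, had 1.82 and 3.07. Its fibroblast mean was 2.98 against 2.49 to 2.51 in PRA1 to PRA3, and the wild-type glands had 3.00, 2.86 and 2.51. Its macrophage mean of 3.54 was the highest of the 7, beside 2.65 to 2.97 in PRA1 to PRA3 and 2.73 to 3.04 in wild-type. Its white adipocyte marker mean of 4.71 was inside the range of the other 3, from 4.54 to 5.13. WT2, the next lowest gland for lipogenesis, had the lowest muscle mean of all 7 at -0.77 and the highest white adipocyte mean of the wild-type glands at 4.82. The part of these other cell types in the lipogenesis values was not tested.

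**Figure D4:**
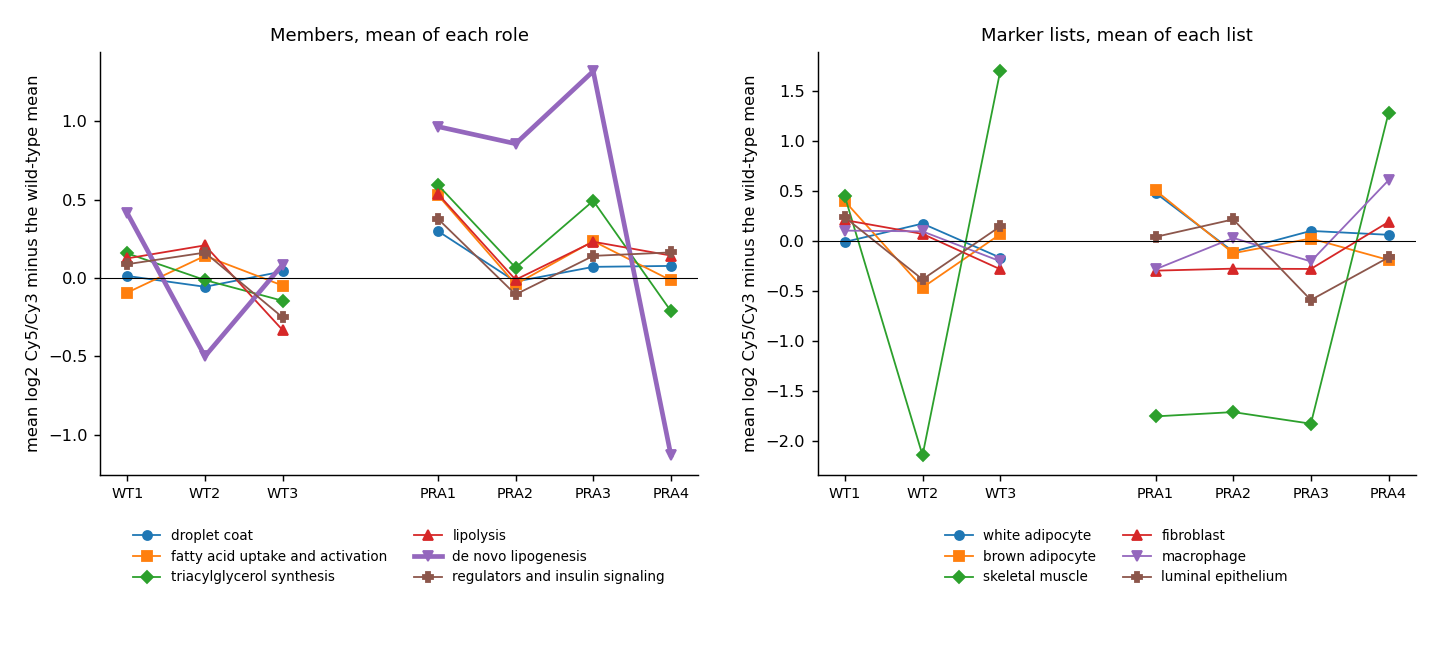
Mean log2 ratio of each role (left) and of each of 6 marker lists (right) in the 7 animals, minus the wild-type mean of that role or list. Lines join the arrays of a genotype for reading and imply no order. De novo lipogenesis ranges over 2.45 log2 units with PRA4 at the bottom, the other 5 roles over 0.35 to 0.87, and skeletal muscle over 3.84.

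The 4 droplet coat genes differed in how much they varied between glands, from 1.54-fold in Cidec to 2.51-fold in Plin2, with a median of 2.02-fold. Plin1, the perilipin that guards the adipocyte droplet, gave 6.40, 6.03 and 6.36 in wild-type and 6.76, 6.42, 6.57 and 6.59 in PRA transgenics (chr7:86866112-86866171 on mm9, minus strand). Every PRA transgenic animal was above every wild-type animal, PRA2 by the least, and the difference was 0.32 with a standard error of 0.14 (adjusted p = 0.58 from limma). Its 2 other probes were also higher, by 0.20 and 0.47, but with overlapping animals. In Cy5 alone the Plin1 difference was -0.095.

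Plin2, a coat protein found in many cell types, had the largest positive difference of the role. It gave 2.20, 2.08 and 3.03 in wild-type and 2.61, 3.41, 3.19 and 2.47 in PRA transgenics, and WT3 lay among the PRA transgenics (difference 0.48, standard error 0.32). Plin4, another adipocyte perilipin, had the most negative difference of the 42 genes, with 6.96, 7.22 and 6.54 in wild-type and 7.05, 5.92, 6.19 and 6.78 in PRA transgenics (difference -0.42, standard error 0.31, adjusted p = 0.738 from limma). PRA2 and PRA3 were below all wild-type animals and PRA1 and PRA4 were among them. Cidec, which lets droplets fuse, was the steadiest gene of the role.

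Among the genes of fatty acid uptake and activation, 6 of 7 were higher in PRA transgenics and Slc27a1 passed P under 0.05. Slc27a1, an insulin-responsive fatty acid transporter, gave 1.56, 1.14 and 0.79 in wild-type and 1.74, 1.53, 2.00 and 1.66 in PRA transgenics (chr8:74110256-74110315 on mm9, plus strand). WT1 lay within the PRA transgenic range, above PRA2, and the difference was 0.57 with a standard error of 0.21 (adjusted p = 0.494 from limma). Without WT3, the lowest animal, the difference was 0.38 and P was above 0.05, as it was without WT2, PRA1 or PRA3.

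Lpl, the lipoprotein lipase that adipocytes secrete, gave 6.42, 7.11 and 6.71 in wild-type and 7.32, 6.45, 6.70 and 6.70 in PRA transgenics. The genotypes overlapped on this probe, and all 6 of its probes had differences between 0.050 and 0.40. On 1 of the other 5, with a difference of 0.23, every PRA transgenic animal was above every wild-type animal. Fabp4, the adipocyte fatty acid-binding protein, gave 8.57, 8.43 and 8.24 in wild-type and 8.93, 8.36, 8.68 and 8.58 in PRA transgenics, a difference of 0.22 with a standard error of 0.17. Cd36, the fatty acid translocase, was the one gene with a negative difference, -0.15 with a standard error of 0.23, on values of 5.01, 5.60 and 5.15 in wild-type and 5.52, 4.91, 4.76 and 5.22 in PRA transgenics. Acsl1, which activates fatty acids with coenzyme A, and Cav1, the caveolin of adipocyte caveolae, overlapped between genotypes with ranges of 1.71-fold and 2.05-fold. Fabp5, a fatty acid-binding protein also made outside adipocytes, ranged 3.47-fold, with PRA4 lowest at 0.91 and PRA3 highest at 2.71.

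All 7 triacylglycerol synthesis genes had positive differences, and Lpin1 passed P under 0.05. Lpin1, the phosphatidate phosphatase that makes diacylglycerol, gave 2.16, 2.20 and 2.03 in wild-type and 2.75, 2.57, 2.92 and 2.31 in PRA transgenics (chr12:16543023-16543082 on mm9, minus strand). The wild-type animals lay close together and below all PRA transgenics, of which PRA4 was the lowest, and the difference was 0.50 with a standard error of 0.17 (adjusted p = 0.462 from limma). Its 3 other probes were higher by 0.42 to 1.00, none at P under 0.05, and the one with the largest difference had the reference well above background on 1 of 7 arrays. Lpin1 kept P under 0.05 when any array other than WT3 was left out, and lost it without WT3 (difference 0.45) and with an intensity trend in the fit.

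Pck1, whose enzyme provides glycerol phosphate in adipocytes by glyceroneogenesis, gave 6.81, 6.21 and 6.52 in wild-type and 6.79, 6.46, 6.59 and 6.66 in PRA transgenics. The PRA transgenics lay inside the wild-type range, with a difference of 0.11 and a standard error of 0.17. In Cy5 alone the Pck1 difference was -0.75. Dgat2 and Gpam, enzymes of the last and the first step, had PRA4 as their lowest animal, at 5.90 and 1.84, and ranges of 2.73-fold and 3.22-fold. Agpat2, which adds the second fatty acid, was also lowest in PRA4, at 3.10, and ranged 2.08-fold. Gpd1, which makes glycerol phosphate from a glycolytic intermediate, and Dgat1, the other enzyme of the last step, ranged 1.42-fold and 1.54-fold. A second Gpd1 probe ranged 3.06-fold with a difference of 0.77, and its reference signal was well above background on 0 of 7 arrays.

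Of the 7 lipolysis genes 6 had positive differences, and Lipe passed P under 0.05. Lipe, hormone-sensitive lipase, gave 4.28, 4.40 and 3.96 in wild-type and 4.81, 4.50, 4.51 and 4.72 in PRA transgenics (chr7:26165828-26165887 on mm9, minus strand). All PRA transgenics were above all wild-type animals, by a small margin between WT2 and PRA2, and the difference was 0.42 with a standard error of 0.15 (adjusted p = 0.493 from limma). Its second kept probe had the opposite sign, with 3.90, 3.95 and 3.46 in wild-type and 3.84, 3.05, 3.85 and 3.79 in PRA transgenics, a difference of -0.14. P for Lipe was above 0.05 in Cy5 alone (difference 0.31), with an intensity trend, after normexp and loess (0.30), by the median over probes (0.14), and without WT1, WT3, PRA1 or PRA4 (0.45, 0.30, 0.36 and 0.39).

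Pnpla2, the lipase of the first step, did not separate the genotypes, with 3.60, 3.73 and 3.33 in wild-type and 3.92, 3.23, 3.51 and 3.57 in PRA transgenics and a difference of -0.00025. Pnpla3, a related gene that is induced by carbohydrate feeding, had the largest positive difference of the role. It gave 7.43, 7.13 and 6.87 in wild-type and 8.30, 7.001, 7.93 and 7.20 in PRA transgenics (difference 0.46, standard error 0.34), with the reference well above background on 5 of 7 arrays. In Cy5 alone that difference was 1.33, at P under 0.05 (adjusted p = 0.451 from limma). The other Pnpla3 probe had the reference well above background on all 7 arrays and a difference of 0.27. On it every PRA transgenic animal was above every wild-type animal. Mgll, the monoacylglycerol lipase, and G0s2, the inhibitor of Pnpla2, had the narrowest ranges of the ratio among the 42 genes, 1.32-fold and 1.22-fold. Their single channels ranged more widely, over 0.58 and 0.96 log2 units in scaled Cy5 and over 0.54 and 0.95 in Cy3. Abhd5, the activator of Pnpla2, ranged 1.80-fold in the ratio. Aqp7, the glycerol channel of adipocytes, ranged 5.73-fold, between WT3 at 5.37 and WT2 at 7.89, and its reference signal was well above background on 0 of 7 arrays. The scaled Cy5 signal of this probe ranged over 0.80 log2 units and the Cy3 signal over 2.18, so its ratio ranged more widely than the gland signal. The second Aqp7 probe had the reference well above background on all 7 arrays. It ranged 2.12-fold, with WT1 lowest and PRA1 highest.

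The regulators and insulin signaling genes had no member at P under 0.05. Pparg, the nuclear receptor that directs adipocyte differentiation, gave 3.83, 4.04 and 3.51 in wild-type and 4.47, 3.83, 4.11 and 4.03 in PRA transgenics, a difference of 0.32 with a standard error of 0.20. Mlxipl, the gene of the glucose-responsive factor ChREBP, gave 4.55, 4.23 and 4.07 in wild-type and 4.71, 4.62, 4.98 and 4.29 in PRA transgenics, a difference of 0.37 with a standard error of 0.20. In both genes the animals overlapped on these probes. On 1 of the other Mlxipl probes, with a difference of 0.18, every PRA transgenic animal was above every wild-type animal. On the third, with a difference of 0.19, the animals overlapped. Cebpb, which acts early in differentiation, had a negative difference of -0.28, on values of -0.39, 0.36 and 0.43 in wild-type and -0.26, -0.37, -0.033 and 0.073 in PRA transgenics, and WT1 was the lowest of the 7. Cebpa, a factor of mature adipocytes, ranged 1.42-fold, the insulin receptor Insr 2.89-fold and its substrate Irs1 2.29-fold, all with overlapping genotypes. The 2 Insr probes had differences of opposite sign, 0.35 and -0.26, and both were dim. Car3, a carbonic anhydrase abundant in adipocytes, gave 6.40, 6.43 and 6.24 in wild-type and 7.01, 6.11, 6.39 and 6.40 in PRA transgenics, a difference of 0.12 with a standard error of 0.22. The other Car3 probes had differences of 0.84, with the reference well above background on 0 of 7 arrays, and of 0.28.

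Outside lipogenesis, PRA1 was the animal that stood out. It had the highest value for 20 of the 32 other members, and it was also the gland with the highest mean of the white adipocyte markers, 5.13. This was not particular to white adipocytes. PRA1 was also highest for the brown adipocyte (4.43), basal epithelium (2.62), endothelium (5.36) and Schwann cell (2.38) markers. It was lowest for the fibroblast (2.49) and macrophage (2.65) markers, and neither highest nor lowest for luminal, skeletal muscle, T cell and B cell markers. PRA1 was singled out because it was highest for 20 of the 32 members, so leaving it out was bound to lower the PRA transgenic mean of those genes. The values without PRA1 describe how much rests on this animal and are not a test. With PRA1 left out, 20 of these 32 genes had a positive difference, against 28 with all arrays (52.7% of all genes with all arrays). Their median difference was 0.055 in place of 0.14, beside 0.0049 in place of 0.014 over all genes. Whether the amount of RNA from adipocytes or from another cell type moved these genes was not tested.

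**Figure D5:**
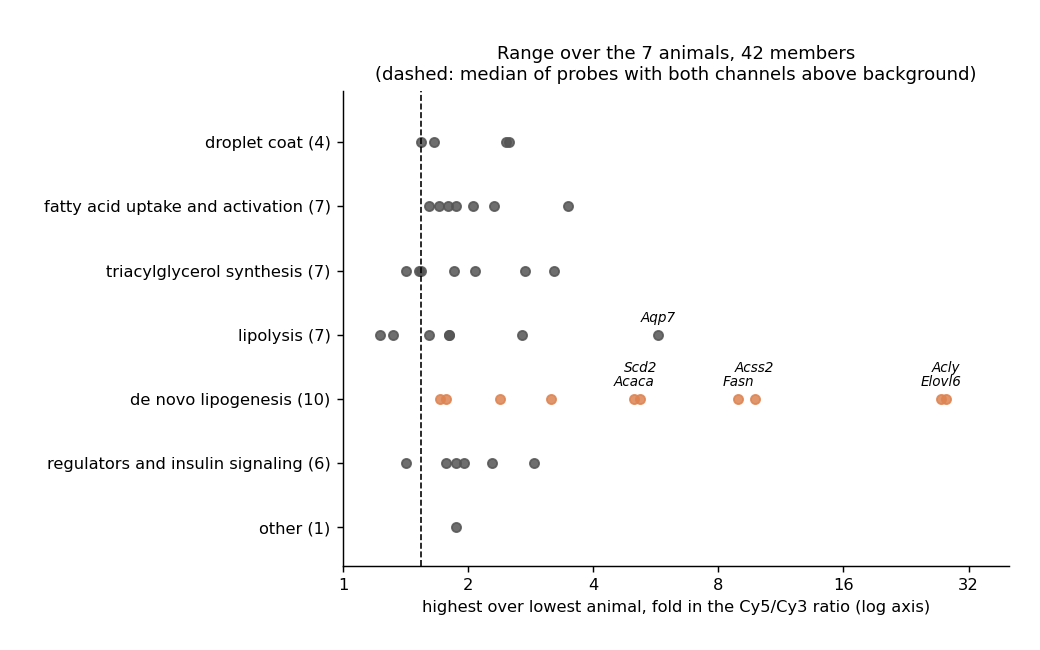
Fold between the highest and the lowest of the 7 animals for each of the 42 genes, by role, on a log axis, with the number of genes in brackets and the median of the 24664 probes measured in both channels as a dashed line at 1.54. Acly and Elovl6 lie at 28.2 and 27.5, and outside de novo lipogenesis Aqp7 is the one gene above 4. The Aqp7 probe had its reference signal well above background on 0 of 7 arrays.

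The other genes of the same pathways were 55 genes on a list of their own, of which 53 were tested. Their differences fell on both sides, 28 higher and 25 lower, with a median of 0.025. At P under 0.05 there were 5 higher and 2 lower genes, or 13.2% of the list beside 7.95% of all genes, and none passed adjustment. The 5 that also passed 1.5-fold were Gpat2, Pik3r1, Insig1 and Srebf1, all higher, and Zfp423, which was lower. The other two were Gpihbp1, which anchors lipoprotein lipase in capillaries and was higher by 0.44, and Hilpda, an inhibitor of Pnpla2, with a difference of -0.52.

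Srebf1, the gene of the transcription factor SREBP-1 that drives lipogenic enzymes, gave 1.86, 1.69 and 1.75 in wild-type and 2.49, 2.65, 2.93 and 1.75 in PRA transgenics. PRA1 to PRA3 were above all wild-type animals and PRA4 lay among them (difference 0.69, standard error 0.27, adjusted p = 0.518 from limma), and P was above 0.05 when any array other than PRA4 was left out. Insig1, which holds these factors back and is itself one of their targets, also had PRA1 to PRA3 above all wild-type animals and PRA4 among them. It gave 0.94, 1.36 and 1.06 in wild-type and 2.20, 1.81, 2.38 and 1.30 in PRA transgenics (difference 0.80, standard error 0.27, adjusted p = 0.463 from limma). The wild-type order differed, with WT2 lowest for Srebf1 and the highest wild-type animal for Insig1. Pik3r1, the regulatory subunit of the kinase below the insulin receptor, gave 0.64, 1.28 and 0.23 in wild-type and 1.66, 1.12, 1.58 and 1.90 in PRA transgenics (difference 0.85, adjusted p = 0.463 from limma), and there PRA4 was the highest.

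Gpat2, a glycerol phosphate acyltransferase, was higher by 1.39 with a standard error of 0.56 (adjusted p = 0.534 from limma), on values of 0.58, -1.26 and -0.69 in wild-type and 1.96, 0.25, 1.20 and 0.32 in PRA transgenics. The Gpat2 probe was dim, with the reference well above background on 5 of 7 arrays, and without WT2 the difference was 0.99 and P was above 0.05. Zfp423, a factor of preadipocytes, was lower in every PRA transgenic animal than in every wild-type animal, with 6.56, 6.88 and 6.59 against 6.07, 5.68, 5.75 and 6.03 (difference -0.80, standard error 0.16, adjusted p = 0.33 from limma). Its reference signal was well above background on 0 of 7 arrays, and in Cy5 alone the difference was -0.29. Me1 and Slc25a1, malic enzyme and the mitochondrial citrate carrier, supply reducing power and citrate to lipogenesis and were singled out after their values were seen. Me1 gave 3.65, 2.23 and 3.57 in wild-type and 4.48, 4.68, 5.47 and 1.53 in PRA transgenics, and Slc25a1 gave 2.52, 1.26 and 2.26 in wild-type and 2.85, 3.33, 4.07 and 0.95 in PRA transgenics. In both genes the order of the animals was that of Acly, with ranges of 15.4-fold and 8.66-fold. Elovl3 and Fitm1 had probes on the array that did not pass the filter.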

How the data were processed

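RNA of 3 wild-type and 4 PRA transgenic glands was hybridized to 2-color Agilent arrays, without dye swap. The authors deposited scanner intensities from Agilent Feature Extraction (version 12.0 per the labels), background-subtracted and dye-normalized, and a series table of log2 ratios centered on the median of the samples, which was used as an alternative. Here the log2 ratio of processed Cy5 to Cy3 was taken, control and outlier spots were left out, and spots of a probe were averaged. A probe was kept (34288 of 56605) if every array of 1 genotype or of both had its Cy5 signal well above background. Genotypes were compared with limma 3.58.1 (R 4.3.3, lmFit and eBayes, no covariate) with Benjamini-Hochberg adjustment over all probes kept, a step tested on simulated data. P values set the difference between genotypes against the spread between these animals. Nothing states separate litters, so how independent the animals are is not known. Probe positions are those of the files (mm9). Values on every array are given for 19 members at P under 0.05, with genotypes that do not overlap, with the largest rise or fall of a role, or defining a role. They are also given for 5 other pathway genes at P under 0.05 with 1.5-fold. Another 9 genes were chosen after their values were seen. Of these, Acacb, Elovl5 and Thrsp are given by their lowest and highest animal and the rest on every array. The markers Ucp1 and Cidea, also chosen that way, are given on every array. The members and lists were chosen with earlier results of these data known. The number of arrays limits the precision.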

Additional observations from a re-analysis of the deposited data

Results flagged for a closer look

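Among the 4 PRA transgenic arrays, the mean of the skeletal muscle markers in PRA4 lay far from the other 3: its gap to the nearest array was 0.963 of the range of the group. The mean of the fibroblast markers in PRA4 did so as well, with a gap of 0.959 of the range. PRA4 was the highest of the 4 in both lists. Of all 7 glands WT3 was highest for skeletal muscle (3.07 against 2.65 in PRA4) and WT1 for fibroblast (3.00 against 2.98). In all 61 groups of 4 values were examined this way, and chance gives about 1 in 20, or 3.05 here. No lipid storage or lipogenesis gene stood out by this measure.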

How the results depend on the processing

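Members at P under 0.05 numbered 3, and 1 with an intensity trend, 5 after quantile normalization and 5 with both channels well above background. With 1.5-fold as well they numbered 0, and 2 in Cy5 alone, 2 by the median over probes, 1 after normexp and loess, and 2 after quantile normalization. Leaving out each array in turn gave 1 to 11 and 0 to 9, with 11 and 9 without PRA4. Other pathway genes at P under 0.05 numbered 7, 11 with array weights, and 4 to 18 with an array left out. With 1.5-fold they numbered 5, 3 in Cy5 alone, after normexp and loess, under the stricter filter and by the methods' t-test, and 2 to 14 with an array left out. No member passed adjustment under any of the 18 alternatives. The replicate block gave 10 and 9 members and 14 and 13 other pathway genes, and Slc27a1 and Lipe were not among the 10. It takes PRA4, which has no partner, out of the comparison, and same-numbered animals did not deviate together (r of 0.0997, -0.297 and 0.0362 over probes), so the numbers were not used as pairs. The slide as a block was not run, since there was 1 slide.

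In Cy5 alone the droplet coat median was -0.16, and Plin1 (-0.095), Fabp4 (-0.16), Lpl (-0.091), Pck1 (-0.75) and Car3 (-0.096) turned negative. After normexp and loess Pck1 was -0.13 and Pnpla2 0.017, after quantile normalization Pnpla2 was 0.15, and with the replicate block Scd1 was 0.041. With an array left out the sign turned for Cd36 (-0.29 to 0.026), Pnpla2 (-0.12 to 0.11), Scd1 (-0.22 to 0.041), Car3 (-0.055 to 0.25), Lpl (-0.13 to 0.23), Pck1 (-0.043 to 0.26), Acacb (-0.11 to 0.47), Elovl5 (-0.041 to 0.28) and Elovl6 (-0.080 to 1.68). The cause was not tested. The uptake median was -0.024 without PRA1, and that of the other pathway genes -0.019 after normexp and loess and -0.030 without PRA1. The other medians by role kept their direction in these alternatives. So did the rest of the 19 members, 5 other pathway genes and 9 genes chosen after their values were seen. The remaining members were not followed through every alternative, and some of them turned. Cidec and Abhd5 were lower in PRA transgenics in Cy5 alone, and Cidec, Gpam and Cav1 were among those lower without PRA1. For Aqp7, Insr, Pnpla3, Gpat2 and Zfp423 the reference signal was dim on some or all arrays, which limits their ratios.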

Other observations

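Of 7 brown adipocyte markers 6 were kept, and their mean ran from 3.46 in WT2 to 4.43 in PRA1, with both genotypes in the same range. Ucp1, the uncoupling protein of brown fat, gave log2 ratios of 5.57, 4.67 and 5.41 in wild-type and 5.76, 5.59, 5.77 and 4.90 in PRA transgenics. Cidea, a droplet protein of brown fat, gave 6.33, 5.91 and 6.12 in wild-type and 6.64, 6.43, 6.85 and 5.99 in PRA transgenics. Both were lowest in WT2 and PRA4 and highest in PRA3. They were singled out after their values were seen, and the other 4 markers did not share this order: Cox8b was lowest in WT3 and highest in PRA1, Dio2 lowest in WT2 and highest in WT1, Ppargc1a lowest in PRA2 and highest in PRA1, and Cox7a1 lowest in PRA4 and highest in WT3. In the scaled single channels Ucp1 ranged over 5.02 log2 units in Cy5 and 4.32 in Cy3, and Cidea over 2.24 and 2.10, so the reference signal of these genes moved almost as much as that of the gland. The cause was not tested.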
